A study of Oryctolagus cuniculus with 9 samples.

Results

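The 10 genes described here belong to the oxygen-sensing and vessel-growth system and were followed across the vocal fold libraries: HIF1A, VEGFA, VEGFC, KDR, FLT1, FLT4, TEK, ANGPT1, ANGPT2 and CDH5. They were taken by gene symbol, with no threshold on a measured value but with earlier results of these data known, and they are 10 of the 20525 genes in the deposited table. All 10 had counts in every library and all 10 were among the 17344 genes tested. Messenger RNA of rabbit (Oryctolagus cuniculus) vocal folds was sequenced in 9 libraries, in 3 groups of 3. The normal group came from folds without injury. The untreated group came from injured folds that received nothing further, and the SOT group from injured folds given a hydrogel named SOT, which the labels do not expand and which the series title calls an antioxidant adhesive hydrogel. Injured tissue was collected 1 week after injury. The group without injury therefore differs from both other groups by the injury, and no group had the hydrogel without an injury. Nothing in the labels gives breed, age, sex, the way of injury or the number of animals. Nor do they tie the replicates to separate animals, so p-values measure only the spread between these libraries, which may be technical.

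HIF1A encodes the oxygen-regulated alpha subunit of hypoxia-inducible factor 1. When oxygen is plentiful, prolyl hydroxylases of the EGLN family mark the HIF-1 alpha protein for destruction through the VHL ubiquitin ligase, so the protein is controlled largely after translation, and the messenger RNA measured here is a separate layer. VEGFA, a classical HIF target, is the main growth factor for blood vessels and signals through the receptor KDR (VEGFR2), while FLT1 (VEGFR1) binds the same ligand tightly and can act as a decoy. VEGFC acts on FLT4 (VEGFR3), the receptor best known from lymphatic vessels, and can also act on KDR. Angiopoietin 1, from ANGPT1, activates the endothelial receptor TEK (TIE2) and keeps vessels quiescent, whereas angiopoietin 2, from ANGPT2, is released by endothelial cells and can oppose it. CDH5 encodes VE-cadherin, the adhesion molecule of endothelial junctions. Vessel growth and its later regression are regular phases of wound repair.

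The labels give the cell type as vocal cord histiocytes, a word for tissue macrophages. The marker genes of other tissues were abundant, so the libraries are described here as whole vocal fold tissue. The deposited libraries held between 44755718 and 50338111 counts. Markers were summed as CPM, counts scaled to a common library size. Skeletal muscle markers summed to 17086 to 22807 CPM in normal folds, 670 to 6098 in untreated folds and 1348 to 7950 in SOT folds. Cartilage markers summed to between 2224 and 4531 CPM in normal folds and to at most 156 in untreated and 536 in SOT folds. Squamous epithelium markers stayed between 10062 and 28688 CPM in all 9 libraries. Macrophage markers summed to between 373 and 547 CPM in normal folds, between 1575 and 1685 in untreated folds and between 677 and 1157 in SOT folds. Endothelial markers other than the 10 genes summed to between 695 and 1174 CPM in normal folds, between 1777 and 2004 in untreated folds, and to 2127, 1192 and 779 in SOT replicates 1, 2 and 3. No marker was at 0 in every library. In tissue libraries such as these, fewer cells of a type and less RNA per cell cannot be told apart, and the part that tissue makeup has in the results below was not tested.

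Levels of different genes are given as FPKM, the authors' value per length of transcript and per sequencing depth, because only such values allow one gene to be set beside another. Changes between groups were tested on the counts with edgeR's quasi-likelihood test. A gene is said to have risen or fallen where its p-value, adjusted by Benjamini-Hochberg over all genes tested, was under 0.05. Changes are given on the log2 scale with their standard error (SE).

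HIF1A carried the largest change among the 10 genes. Its FPKM was 33.2, 38.4 and 32.7 in the 3 normal libraries, 180, 247 and 233 in the untreated libraries and 179, 143 and 62.3 in the SOT libraries. Every injured library lay above every normal one, and the lowest of the SOT libraries was replicate 3. The group means were 34.7 ± 3.15 in normal, 220 ± 35.4 in untreated and 128 ± 60 in SOT folds (SD, n = 3 each). In untreated against normal folds HIF1A rose by a log2 fold change of 2.70 (SE 0.37, edgeR adjusted p = 0.00184), a 6.48-fold rise. By mean FPKM it moved from rank 2052 of the table in normal folds to rank 288 in untreated folds. The gene lies on chromosome 20 at 9365898 to 9389022 on the plus strand of build OryCun2.0, and its deposited counts ran from 4127 to 34043 per library, so counting error is small beside the spread between libraries.

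**Figure D1:**
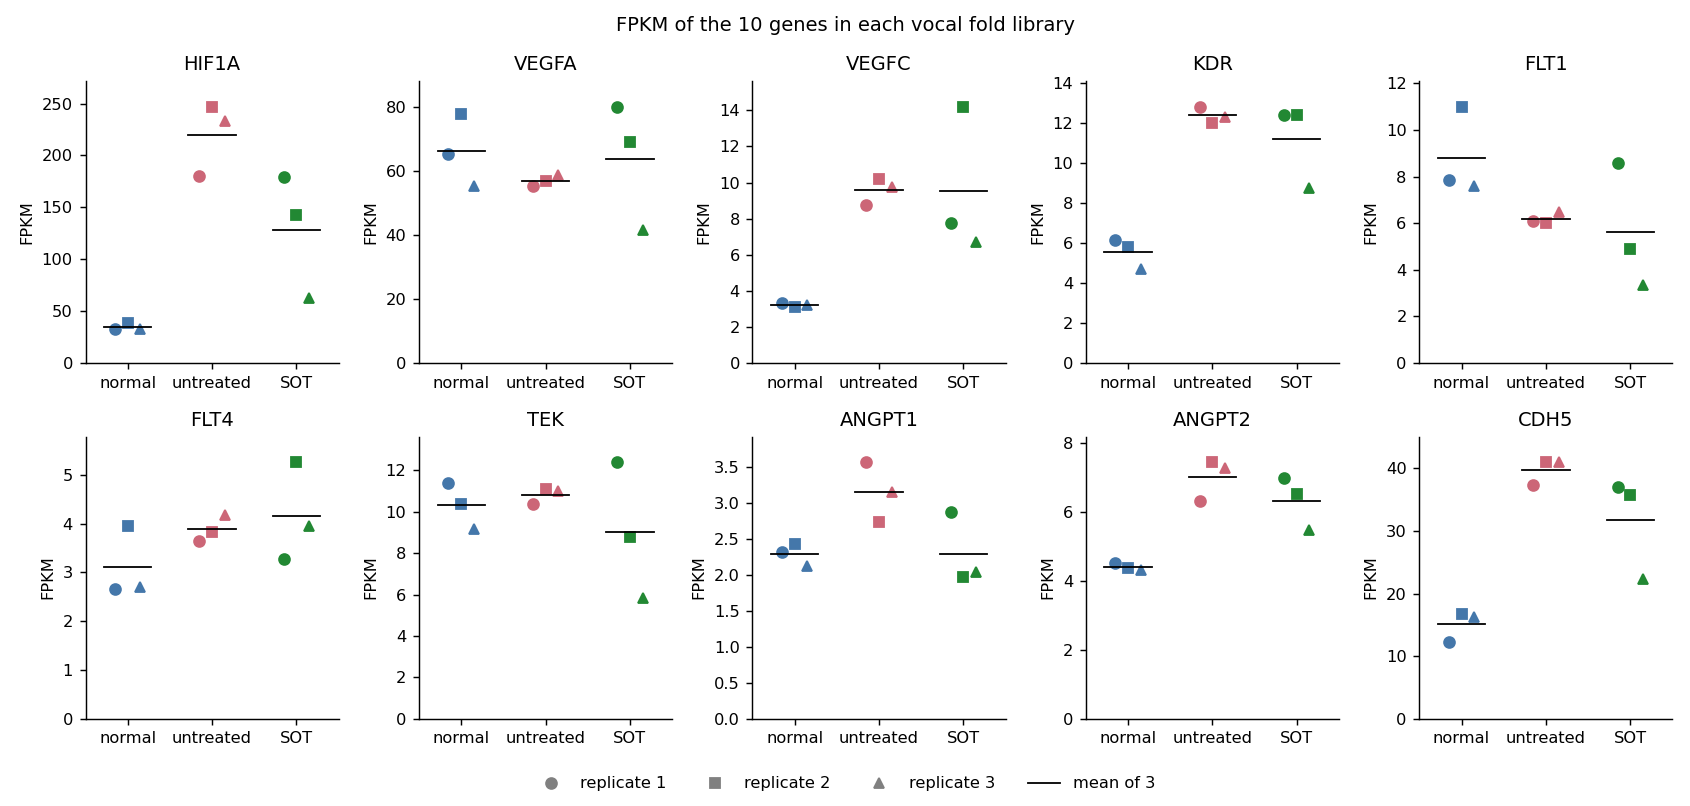
FPKM of the 10 genes (vertical axes, linear from 0, a scale of its own for each gene) in the normal, untreated and SOT libraries, with 1 symbol per library by replicate number and a line at the mean of 3. HIF1A runs from 32.7 to 38.4 in normal and from 180 to 247 in untreated libraries, while VEGFA stays between 41.6 and 80.2 in all 9 libraries.

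VEGFA, whose product draws new vessels toward tissue short of oxygen, did not pass the test in any of the 3 comparisons. Its FPKM was 65.4, 78 and 55.5 in normal, 55.5, 56.8 and 58.9 in untreated and 80.2, 69.3 and 41.6 in SOT folds. The groups overlapped throughout. The SOT libraries alone spanned the whole range of the gene, and the untreated libraries were the closest together. The difference between untreated and normal folds was -0.19 (SE 0.25, edgeR adjusted p = 0.6), with an interval of 2 SE on either side from -0.68 to 0.31. A rise of VEGFA of the size seen for HIF1A lies far outside that interval. VEGFA lies on chromosome 12 at 33199538 to 33214875, plus strand.

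VEGFC, the growth factor of lymphatic vessels, rose. Its FPKM was 3.31, 3.08 and 3.19 in normal folds, 8.78, 10.2 and 9.73 in untreated folds and 7.74, 14.2 and 6.7 in SOT folds. No injured library reached down to the normal ones, and SOT replicate 2 held the highest value. The change in untreated folds was 1.61 (SE 0.26, edgeR adjusted p = 0.00322), or 3.06-fold. VEGFC lies on chromosome 2 at 54161431 to 54278581, minus strand. Its level still stayed well under that of VEGFA: of the summed FPKM of VEGFA, VEGFC and the placental growth factor PGF, VEGFC held 3.96% ± 0.639 in normal, 11.7% ± 0.482 in untreated and 11.4% ± 3.55 in SOT folds (SD, n = 3 each). VEGFA held 80.8% ± 2, 70.1% ± 1.99 and 74.9% ± 3.71 in the same order. FIGF, the gene of the ligand VEGF-D, was left out of this sum. Its FPKM was 6.28 ± 1.56 in normal, 1.64 ± 0.601 in untreated and 2.89 ± 0.775 in SOT folds.

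Of the 3 VEGF receptors, KDR rose and the other two did not pass the test. KDR, the receptor that carries most of the growth signal of VEGF-A, had an FPKM of 6.12, 5.8 and 4.72 in normal, 12.8, 12 and 12.3 in untreated and 12.4, 12.4 and 8.72 in SOT folds. All injured libraries were above all normal ones, with SOT replicate 3 the lowest of the injured. The change in untreated folds was 1.19 (SE 0.17, edgeR adjusted p = 0.0023), or 2.28-fold. KDR lies on chromosome 15 at 93608021 to 93652418, plus strand.

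FLT1, which binds VEGF-A without passing on a strong signal, had an FPKM of 7.84, 11 and 7.59 in normal, 6.11, 6 and 6.49 in untreated and 8.58, 4.89 and 3.34 in SOT folds. The untreated libraries all lay below the normal ones, and the SOT libraries spread across both. The difference in untreated folds was -0.48 (SE 0.33, edgeR adjusted p = 0.296), with an interval of 2 SE from -1.13 to 0.18. FLT4, the receptor of VEGF-C, had an FPKM of 2.66, 3.96 and 2.69 in normal, 3.65, 3.83 and 4.18 in untreated and 3.27, 5.26 and 3.96 in SOT folds. Normal replicate 2 lay among the injured libraries. The difference in untreated folds was 0.36 (SE 0.20, edgeR adjusted p = 0.209), from -0.05 to 0.77 at 2 SE. FLT1 and FLT4 lie on scaffolds that OryCun2.0 does not place on a chromosome.

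In the angiopoietin arm, ANGPT2 rose, and its counterpart ANGPT1 and the shared receptor TEK did not pass the test. ANGPT2, the angiopoietin that loosens vessel walls, had an FPKM of 4.53, 4.36 and 4.3 in normal, 6.32, 7.44 and 7.26 in untreated and 6.99, 6.51 and 5.47 in SOT folds. The SD of the normal libraries was 0.121, and all injured libraries lay above them. The change in untreated folds was 0.70 (SE 0.14, edgeR adjusted p = 0.00756), or 1.63-fold. ANGPT2 also lies on an unplaced scaffold.

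ANGPT1, the angiopoietin that stabilises vessels, had an FPKM of 2.32, 2.43 and 2.12 in normal, 3.57, 2.74 and 3.15 in untreated and 2.88, 1.97 and 2.04 in SOT folds. The untreated libraries lay above the normal ones, while the SOT libraries fell on both sides of the normal range. The difference in untreated folds was 0.49 (SE 0.21, edgeR adjusted p = 0.103). ANGPT1 had the fewest counts of the 10 genes, between 285 and 519 per library. It lies on chromosome 3 at 122698220 to 122945631, minus strand. TEK, the endothelial receptor of both angiopoietins, had an FPKM of 11.4, 10.4 and 9.19 in normal, 10.4, 11.1 and 11 in untreated and 12.4, 8.77 and 5.84 in SOT folds. Its groups overlapped, and the difference in untreated folds was 0.10 (SE 0.26, edgeR adjusted p = 0.799), from -0.41 to 0.61 at 2 SE. TEK lies on chromosome 1 at 26309385 to 26437934, minus strand.

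CDH5, the endothelial junction cadherin, rose. Its FPKM was 12.2, 16.8 and 16.3 in normal, 37.3, 41 and 41 in untreated and 37, 35.8 and 22.3 in SOT folds. Every injured library was above every normal one, and SOT replicate 3 was again the lowest of the injured libraries. The change in untreated folds was 1.43 (SE 0.22, edgeR adjusted p = 0.00249), or 2.7-fold, and the gene moved from rank 4836 to rank 1938 of the table by mean FPKM. CDH5 lies on chromosome 5 at 21866678 to 21902323, plus strand.

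In untreated against normal folds, 5 of the 10 genes rose and none fell. Over all genes tested by edgeR, 32.8% were called in either direction, 17.7% higher and 15.1% lower. The median log2 fold change was 0.60 over the 10 genes and -0.02 over all genes. The same comparison with each of the 9 libraries left out in turn also called 5 of the 10 genes each time, and the highest adjusted p of the 5 genes was 0.0345, for ANGPT2.

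The order of the levels differed between normal and injured folds. By mean FPKM the normal folds ran from VEGFA (66.3 ± 11.3, SD, n = 3) over HIF1A, CDH5 (15.1 ± 2.49), TEK (10.3 ± 1.1), FLT1 (8.82 ± 1.91), KDR (5.55 ± 0.735), ANGPT2 (4.4 ± 0.121), VEGFC (3.2 ± 0.114) and FLT4 (3.1 ± 0.741) to ANGPT1 (2.29 ± 0.161). The libraries of TEK and FLT1 overlapped in this order, as did those of VEGFC and FLT4. In the untreated folds HIF1A stood first, followed by VEGFA (57 ± 1.71), CDH5 (39.7 ± 2.13), KDR (12.4 ± 0.421), TEK (10.8 ± 0.336), VEGFC (9.56 ± 0.712), ANGPT2 (7.01 ± 0.603), FLT1 (6.2 ± 0.259), FLT4 (3.89 ± 0.271) and ANGPT1 (3.15 ± 0.412). KDR thus stood below FLT1 and TEK in normal folds and above both in untreated folds. The libraries of ANGPT2 and FLT1 overlapped in the untreated order. In the SOT folds HIF1A also stood first and ANGPT1 last. The libraries of HIF1A and VEGFA (63.7 ± 19.9) overlapped there, and so did those of KDR, VEGFC and TEK, with means of 11.2 ± 2.14, 9.55 ± 4.07 and 8.99 ± 3.26.

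The SOT hydrogel was set against no treatment to ask what it changes in injured folds. None of the 10 genes passed the test in this comparison, and over all genes edgeR called 2, or 0.0115%. At an unadjusted p under 0.05, 2 of the 10 genes passed, both lower, against 12.6% of all genes, so the count is close to the background. DESeq2 called 3.93% of all genes, or 682, and 0 of the 10, and limma also called 0 of the 10. HIF1A had the largest difference, -0.90 (SE 0.35, unadjusted p = 0.0321, edgeR adjusted p = 0.342), with an interval of 2 SE from -1.61 to -0.20. With 1 library left out it ran from -1.23, without SOT replicate 1, to -0.53, without SOT replicate 3. The other gene was ANGPT1, at -0.59 (SE 0.21, unadjusted p = 0.0217, edgeR adjusted p = 0.309). For VEGFA the difference was 0.03, with an interval of 2 SE from -0.46 to 0.53, and for KDR it was -0.28, from -0.62 to 0.07. The median over the 10 genes was -0.28, and over all genes 0.01.

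In CPM, 4 of the 10 genes (HIF1A, KDR, ANGPT1 and CDH5) had all SOT libraries below all untreated ones, and over all genes tested 12.4% did. HIF1A was at 521, 722 and 665 CPM in untreated and 492, 369 and 159 in SOT folds. KDR was at 71.5, 67.5 and 67.9 CPM in untreated and 65.7, 61.9 and 42.9 in SOT folds, and by FPKM the groups of KDR and of ANGPT1 overlapped, while those of HIF1A and CDH5 did not. The SOT libraries differed among themselves. In CPM, replicate 3 was the lowest of the SOT libraries for 8 of the 10 genes, against 34.4% of all genes tested. The exceptions were FLT4, which was lowest in replicate 1, and ANGPT1, which was lowest in replicate 2. Endothelial markers were likewise lowest in replicate 3 and highest in replicate 1, by the sums given above. Macrophage markers summed to 1157, 677 and 695 CPM and neutrophil markers to 4657, 1764 and 1991 CPM in SOT replicates 1, 2 and 3, so both were highest in replicate 1 too. At an unadjusted p under 0.05, 7 of 10 macrophage markers differed between SOT and untreated folds, with 0 called by edgeR after adjustment and 5 called lower by DESeq2. The part of these cells in the differences of the 10 genes was not tested.

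In SOT against normal folds, 4 of the 10 genes rose and none fell, against 16.7% of all genes called in either direction and 9.01% called higher. HIF1A was higher by 1.79 (SE 0.36, edgeR adjusted p = 0.0153), VEGFC by 1.47 (SE 0.26, adjusted p = 0.0107), KDR by 0.91 (SE 0.17, adjusted p = 0.013) and CDH5 by 0.97 (SE 0.21, adjusted p = 0.0202). ANGPT2 did not pass, at 0.42 (SE 0.14, adjusted p = 0.0751). VEGFA differed by -0.15 (adjusted p = 0.711), FLT1 by -0.74 (adjusted p = 0.154) and TEK by -0.30 (adjusted p = 0.458). The normal libraries are shared with the comparison of untreated folds, so the values of each are given side by side and their likeness is not read as a result. Single libraries decided some calls: HIF1A lost its call without normal replicate 1 (adjusted p = 0.059), CDH5 without normal replicate 1, SOT replicate 1 or SOT replicate 2 (adjusted p up to 0.0736). ANGPT2 was called without SOT replicate 3 (0.57, adjusted p = 0.0242), by DESeq2 and by limma, and FLT1 was called lower without SOT replicate 1 (-1.21, adjusted p = 0.0212).

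**Figure D2:**
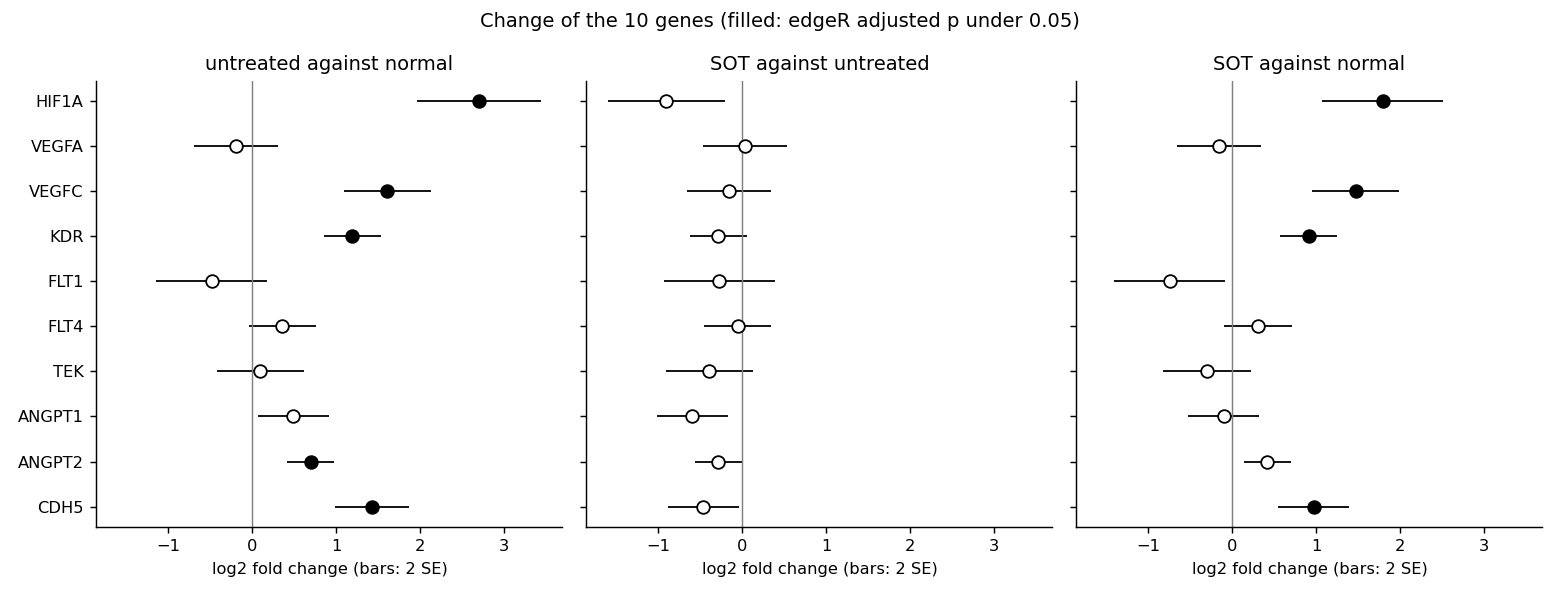
Log2 fold change of the 10 genes (horizontal axes) in the 3 comparisons between groups, with bars of 2 SE to either side and filled points where the edgeR adjusted p was under 0.05. The panels hold 5 filled points for untreated against normal, 0 for SOT against untreated and 4 for SOT against normal, and HIF1A lies farthest from 0 in each panel.

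Ratios within a library set 2 genes side by side without a normal library as reference. HIF1A to VEGFA by FPKM was 0.507, 0.492 and 0.589 in normal folds, 3.25, 4.36 and 3.96 in untreated folds and 2.24, 2.07 and 1.5 in SOT folds. The 3 groups did not overlap, and the SOT libraries lay between the others. VEGFA thus exceeded HIF1A in every normal library, and HIF1A exceeded VEGFA in every injured one. The ratio was 7.25-fold higher in untreated than in normal folds and 0.498 times as high in SOT as in untreated folds. Each of the 3 comparisons gave a two-sided exact permutation p of 0.1, the smallest that 3 against 3 libraries allow, and 0.15 after adjustment over the 9 ratio comparisons made.

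FLT1 can act as a decoy for VEGF-A, but the values are per gene and do not tell forms of its transcript apart. The FLT1 to KDR ratio by FPKM was 1.28, 1.9 and 1.61 in normal folds, 0.477, 0.501 and 0.527 in untreated folds and 0.692, 0.393 and 0.383 in SOT folds. It was above 1 in every normal library and below 1 in every injured one. The log2 difference was -1.65 in untreated against normal and -1.74 in SOT against normal folds, with an exact permutation p of 0.1 (adjusted 0.15) for each. Between SOT and untreated folds it was -0.09 (exact permutation p = 1), with overlapping libraries.

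The ratio of ANGPT2 to ANGPT1 was 1.95, 1.79 and 2.03 in normal, 1.77, 2.71 and 2.31 in untreated and 2.43, 3.3 and 2.67 in SOT folds. The untreated libraries overlapped both other groups. Its log2 difference was 0.21 in untreated against normal folds (exact permutation p = 0.4, adjusted 0.45) and 0.32 in SOT against untreated folds (p = 0.3, adjusted 0.386, exact permutation). In SOT against normal folds it was 0.53, where the libraries did not overlap (exact permutation p = 0.1, adjusted 0.15).

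**Figure D3:**
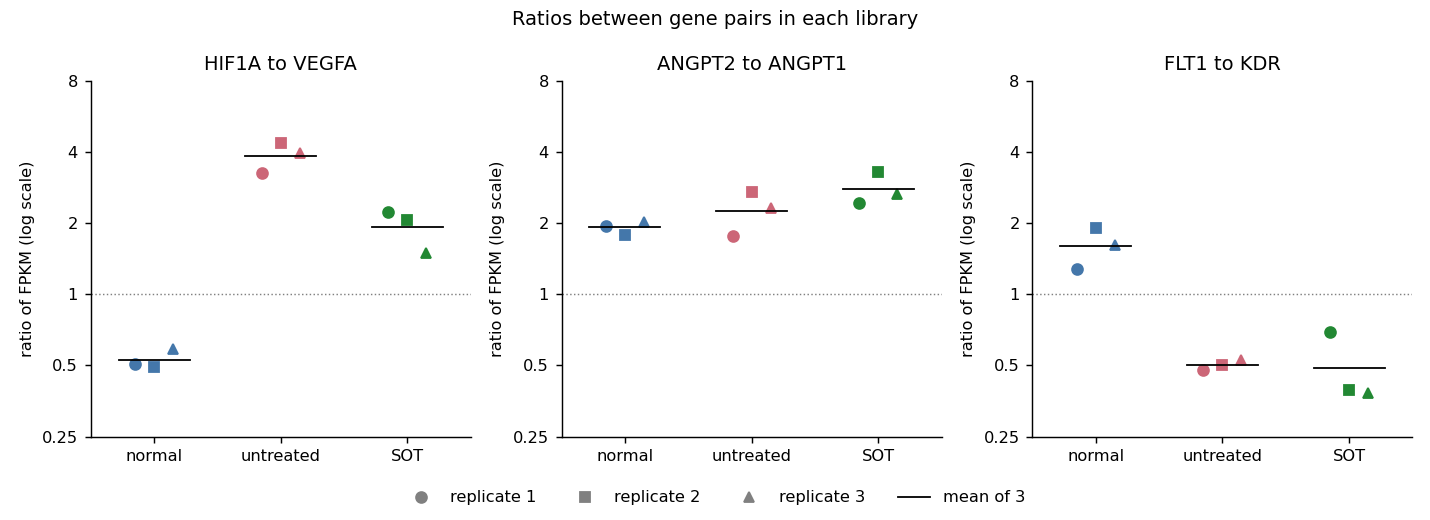
FPKM ratios of HIF1A to VEGFA, ANGPT2 to ANGPT1 and FLT1 to KDR in each library (vertical axes, log scale, dotted line at 1), with 1 symbol per library by replicate number and a line at the mean of 3. HIF1A to VEGFA runs from 0.492 to 0.589 in normal and from 3.25 to 4.36 in untreated libraries, and FLT1 to KDR crosses from above 1 to below 1 between normal and injured libraries.

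Not all endothelial genes kept their proportion to CDH5. FLT1 relative to CDH5 was 0.641, 0.657 and 0.467 in normal, 0.164, 0.146 and 0.158 in untreated and 0.232, 0.137 and 0.15 in SOT folds. TEK relative to CDH5 was 0.932, 0.621 and 0.566 in normal, 0.28, 0.27 and 0.268 in untreated and 0.334, 0.245 and 0.262 in SOT folds. Both were lower in every injured library than in any normal one. KDR relative to CDH5 overlapped between the groups, with means of 0.379 ± 0.109 in normal, 0.312 ± 0.0276 in untreated and 0.358 ± 0.0294 in SOT folds (SD, n = 3 each). ANGPT2 relative to CDH5 was 0.298 ± 0.0627, 0.176 ± 0.00615 and 0.206 ± 0.0348 in the same order, and every injured library was lower than every normal one. FLT4 relative to CDH5 was 0.218, 0.236 and 0.165 in normal, 0.0979, 0.0936 and 0.102 in untreated and 0.0885, 0.147 and 0.178 in SOT folds. SOT replicate 3 thus reached into the normal range of FLT4. PECAM1, the platelet and endothelial adhesion molecule that leukocytes also carry, was 1.97 ± 0.141 times CDH5 in normal, 3.03 ± 0.101 in untreated and 2.27 ± 0.842 in SOT folds, and 3.24, 1.84 and 1.73 in the 3 SOT libraries. Relative to PECAM1, KDR, FLT1, FLT4, TEK and ANGPT2 were each lower in all untreated than in all normal libraries. In SOT folds FLT1 and TEK relative to PECAM1 were also below all normal libraries, whereas KDR (0.104, 0.189 and 0.227), FLT4 (0.0273, 0.08 and 0.103) and ANGPT2 (0.0584, 0.0989 and 0.142) reached into the normal range. CDH5 itself rose by 1.43 and PECAM1 by 2.05 in untreated against normal folds, above the median of 0.69 over the 17 endothelial markers. A lower proportion to either gene therefore does not by itself mean a lower level. ANGPT2 rose by 0.70 and TIE1 by 0.62, yet both were lower relative to CDH5. TIE1 relative to CDH5 was 0.441 ± 0.0464 in normal, 0.252 ± 0.0147 in untreated and 0.301 ± 0.0187 in SOT folds. These proportions are a description and were not tested.

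**Figure D4:**
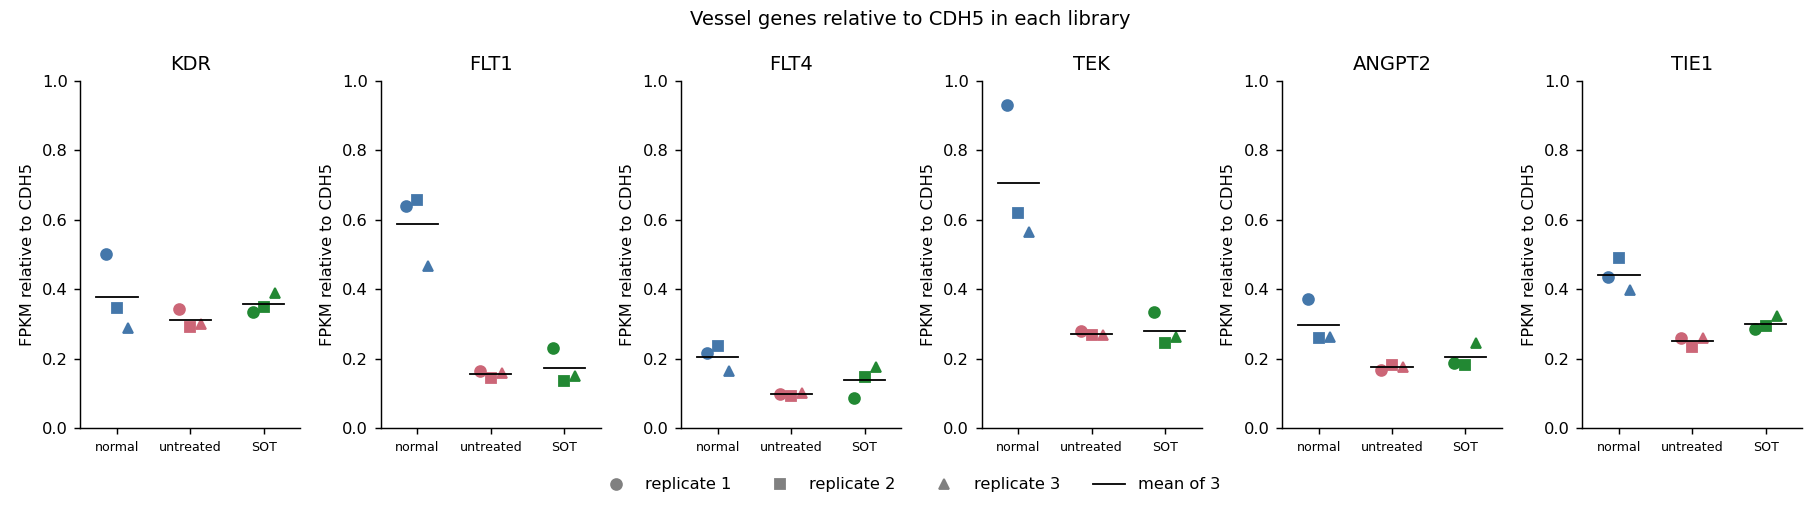
FPKM of KDR, FLT1, FLT4, TEK, ANGPT2 and TIE1 divided by the FPKM of CDH5 in the same library (vertical axes, linear from 0 to 1), with 1 symbol per library by replicate number and a line at the mean of 3. FLT1 lies between 0.467 and 0.657 in normal libraries and between 0.137 and 0.232 in injured ones, while KDR overlaps between the groups.

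Around HIF1A, the other genes of the HIF subunit and oxygen-sensing list moved little or in mixed directions. Of 9 genes, 1 rose and 2 fell in untreated against normal folds, with a median of -0.10. Over all genes 32.8% were called in either direction, so the count is close to the background. EPAS1, which encodes the related subunit HIF-2 alpha, had an FPKM of 79.4 ± 9.6 in normal, 87.7 ± 7.95 in untreated and 114 ± 40.2 in SOT folds (SD, n = 3 each; 0.17 in untreated folds, edgeR adjusted p = 0.658). HIF1A made up 28.9%, 30.4% and 32.1% of the summed FPKM of HIF1A and EPAS1 in normal, 65.4%, 75.7% and 72.5% in untreated and 56%, 51.7% and 47.8% in SOT folds, so the 3 groups did not overlap. EGLN3, a prolyl hydroxylase that is itself a HIF target, rose by 2.45 (SE 0.66, edgeR adjusted p = 0.0232), from an FPKM of 3.49, 4.6 and 5.08 in normal to 36.9, 11.1 and 22.4 in untreated folds. EGLN1, the main prolyl hydroxylase of HIF-1 alpha, fell by 0.84 (SE 0.12, edgeR adjusted p = 0.00236), with 14.5, 14.7 and 14.3 in normal and 9.08, 6.68 and 8.02 in untreated folds. HIF1AN, which limits the activity of HIF-1 alpha, fell by 0.38 (SE 0.11, edgeR adjusted p = 0.036). EGLN3 and HIF1AN were each called in 4 of the 9 fits that left out 1 library, and the list's 3 calls became 1 on leaving out any normal library or untreated replicate 3.

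Genes known to be activated by HIF proteins were mostly higher in untreated folds, with exceptions. Of 20 such genes, 17 had a positive log2 fold change there, and the median was 0.90. By the test 12 rose, 2 fell and 6 were not called, while over all genes 17.7% rose and 15.1% fell. LOX, a collagen cross-linking enzyme, rose by 1.87 (SE 0.23, edgeR adjusted p = 0.00111), from 13 ± 0.576 to 46.5 ± 2.13 FPKM (SD, n = 3 each). ADM, the vessel-relaxing peptide adrenomedullin, rose by 1.92 (SE 0.55, edgeR adjusted p = 0.0295), and this call was lost when any 1 of the 6 libraries compared was left out (adjusted p up to 0.0962). The glucose transporter SLC2A1, which was named after its values were seen, rose by 1.71 (adjusted p = 0.00911). The genes that fell were the glycolytic enzyme ALDOA (-1.58, edgeR adjusted p = 0.00676) and PDK1 (-1.24, adjusted p = 0.00952), a kinase that holds pyruvate back from the mitochondria. Other enzymes of sugar use on the list were not called lower: ENO1 rose by 1.44 (adjusted p = 0.0035), and PGK1 was at 0.43 (adjusted p = 0.107) and HK2 at 0.04 (adjusted p = 0.936). ALDOA is also a major enzyme of skeletal muscle, whose markers were lower in the same libraries, and the part of muscle in its fall was not tested. The hypoxia marker CA9 was at -0.98 (edgeR adjusted p = 0.193) and LDHA at 0.86 (adjusted p = 0.0543).

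Between SOT and untreated folds, 0 of the 20 HIF target genes were called by edgeR and 0 by DESeq2. At an unadjusted p under 0.05 there were 4 of 20, against the 12.6% of all genes given above, and the list's median was -0.47. Against normal folds, 7 rose and 2 fell in SOT folds, with a median of 0.50, while over all genes 16.7% were called and 9.01% were called higher. That count rested on single libraries: leaving out SOT replicate 3 gave 11 risen and 3 fallen genes, and 1 of each was left without normal replicate 1, normal replicate 2 or untreated replicate 3. The total of 9 calls became 4 without untreated replicate 1 or 2, 5 without SOT replicate 1 and 3 without SOT replicate 2, and 4 with a replicate block.

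The other VEGF genes held a co-receptor rise and a ligand fall. Of 4 genes matched and tested, 2 rose and 1 fell in untreated folds, against 17.7% and 15.1% of all genes. NRP2, the neuropilin that binds VEGF-C, rose by 1.62 (SE 0.28, edgeR adjusted p = 0.00407), with an FPKM of 5.79, 9.89 and 5.69 in normal, 22.7, 20.2 and 21.5 in untreated and 15.3, 20.5 and 10.9 in SOT folds. NRP1, the co-receptor of KDR for VEGF-A, rose by 1.01 (SE 0.23, edgeR adjusted p = 0.0122). FIGF, the older symbol of the ligand VEGF-D, fell to 0.267 times its normal level (SE of the log2 fold change 0.31, edgeR adjusted p = 0.00341), from an FPKM of 6.17, 7.89 and 4.78 to 2.33, 1.33 and 1.25, with 2.23, 2.7 and 3.74 in SOT folds. The 2 ligands of FLT4 therefore differed in opposite directions, VEGFC higher and FIGF lower, with no overlap between normal and injured libraries for either. PGF, a ligand of FLT1, was at 0.29 (edgeR adjusted p = 0.396).

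Of the 4 other angiopoietin and TIE genes, 2 rose in untreated folds, against 17.7% of all genes. SVEP1, an extracellular matrix protein, rose by 1.06 (SE 0.27, edgeR adjusted p = 0.0199), and TIE1, the partner receptor of TEK, by 0.62 (SE 0.20, adjusted p = 0.0475). SVEP1 was called in 4 and TIE1 in 2 of the 9 fits that left out 1 library, and neither without normal replicate 1 or 3 or untreated replicate 1 or 3. TIE1 was also not called with the other size factors in edgeR, without the filter, with limma on log2(FPKM + 1) or with a replicate block (adjusted p up to 0.0584). PTPRB, the phosphatase that silences TEK, was at -0.44 (adjusted p = 0.18) and ANGPT4 at -0.64 (adjusted p = 0.329).

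Genes of tip cells, the leading cells of a vessel sprout, and of Notch signalling, which holds back their number, gave 6 risen and 2 fallen genes of 11 in untreated folds. Over all genes tested, 17.7% rose and 15.1% fell. ESM1, a proteoglycan secreted by endothelial tip cells under VEGF-A, fell by 2.72 (SE 0.26, edgeR adjusted p = 0.000527). Its FPKM was 16.4, 16.5 and 11.9 in normal, 2.57, 1.79 and 2.28 in untreated and 5.11, 2.98 and 4.51 in SOT folds, and it was also lower in SOT than in normal folds (-1.93, adjusted p = 0.00492). APLNR, the apelin receptor, rose by 2.30 (SE 0.23, edgeR adjusted p = 0.000615), with 5.73, 5.78 and 5.82 in normal and 26, 29.7 and 27.9 in untreated folds. Its ligand gene APLN rose by 1.97 (SE 0.28, adjusted p = 0.0022). DLL4, the Notch ligand of tip cells, was at -0.07 (adjusted p = 0.89). The list's 8 calls became 5 without normal replicate 1, normal replicate 3 or untreated replicate 3.

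Among 17 endothelial markers, 4 rose, 1 fell and 12 were not called in untreated folds, with a median of 0.69. Over all genes tested 32.8% were called in either direction, so the count of calls is close to the background. A positive log2 fold change was held by 14 of the 17 markers, against 8381 of the 17344 genes tested. At an unadjusted edgeR p under 0.05 there were 13 of the 17, against 7749 of the 17344. PECAM1 rose by 2.05 (SE 0.39, edgeR adjusted p = 0.00601), with an FPKM of 24.1, 35.5 and 29.8 in normal, 110, 129 and 122 in untreated and 120, 65.8 and 38.5 in SOT folds. PLVAP, a protein of the openings of leaky capillaries, rose by 1.69 (SE 0.34, adjusted p = 0.00755), and the adhesion molecule ICAM2 by 0.95 (SE 0.23, adjusted p = 0.0162). CLEC14A, an endothelial surface lectin named after its values were seen, fell by 0.61 (SE 0.12, adjusted p = 0.00708). The list's 5 calls ranged from 3, without normal replicate 1, normal replicate 3 or untreated replicate 3, to 10, without SOT replicate 1. In SOT against normal folds 1 rose and 1 fell, against 16.7% of all genes called in either direction. Without SOT replicate 3, 6 rose. The count was 0 without any 1 normal library, untreated replicate 2 or 3 or SOT replicate 2, or with a replicate block.

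Of 5 lymphatic markers 1, PDPN, rose in untreated folds, by 1.85 (SE 0.43, edgeR adjusted p = 0.0134), and podoplanin is also made by activated fibroblasts and by epithelium. The share of all genes that rose was 17.7%. The lymphatic regulator PROX1 was at 0.418 ± 0.0241 FPKM in normal and 0.415 ± 0.0404 in untreated folds, and LYVE1, the hyaluronan receptor of lymphatic vessels, was at -0.36 (adjusted p = 0.56). Of 9 genes on the list for mural cells, which wrap the vessels, 5 rose and 1 fell, against 17.7% and 15.1% of all genes. The gene that fell was CSPG4, a proteoglycan of pericytes (-0.67, edgeR adjusted p = 0.0461). ABCC9, a potassium channel subunit of pericytes, rose by 1.52 (SE 0.42, adjusted p = 0.0258), and MCAM by 1.25 (SE 0.34, adjusted p = 0.0227). PDGFB, which the list holds but which endothelial cells make to attract pericytes, rose by 0.84 (SE 0.23, adjusted p = 0.0252). The 6 calls in mural markers fell to 1 without normal replicate 3 or untreated replicate 3, to 2 without untreated replicate 2 and to 3 without normal replicate 1.

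Markers of other cell types moved in the same libraries. Over all genes tested, 17.7% rose and 15.1% fell in untreated against normal folds. In untreated against normal folds 7 of 10 macrophage markers rose, led by ADGRE1 (4.46, edgeR adjusted p = 0.00118), MSR1 (4.06, adjusted p = 0.000789) and CD14 (3.83, adjusted p = 0.000503). Of 6 neutrophil markers 5 rose, led by CXCR2 (5.82, adjusted p = 0.00448), CXCR1 (5.51, adjusted p = 0.00622) and CSF3R (5.50, adjusted p = 0.00742). Of 8 cartilage markers 6 fell, led by COL9A1 (-6.87, adjusted p = 0.00499), COL2A1 (-6.02, adjusted p = 0.00432) and COL11A2 (-5.77, adjusted p = 0.00487). Of 7 skeletal muscle markers 5 fell, led by CKM (-3.25, adjusted p = 0.0319), MYH1 (-3.09, adjusted p = 0.0465) and MB (-3.04, adjusted p = 0.0378), and 0 were called without untreated replicate 3 and 1 without any 1 normal library or untreated replicate 2. The epithelial keratin KRT5 rose by 1.76 (adjusted p = 0.0101), the 1 squamous marker of 7 that was called. The squamous list as a whole did not follow it: 2 of the 7 had a positive log2 fold change, and the median was -0.31. HIF1A and VEGFA are made by many of these cell types, and the part of each in their levels was not tested.

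**Figure D5:**
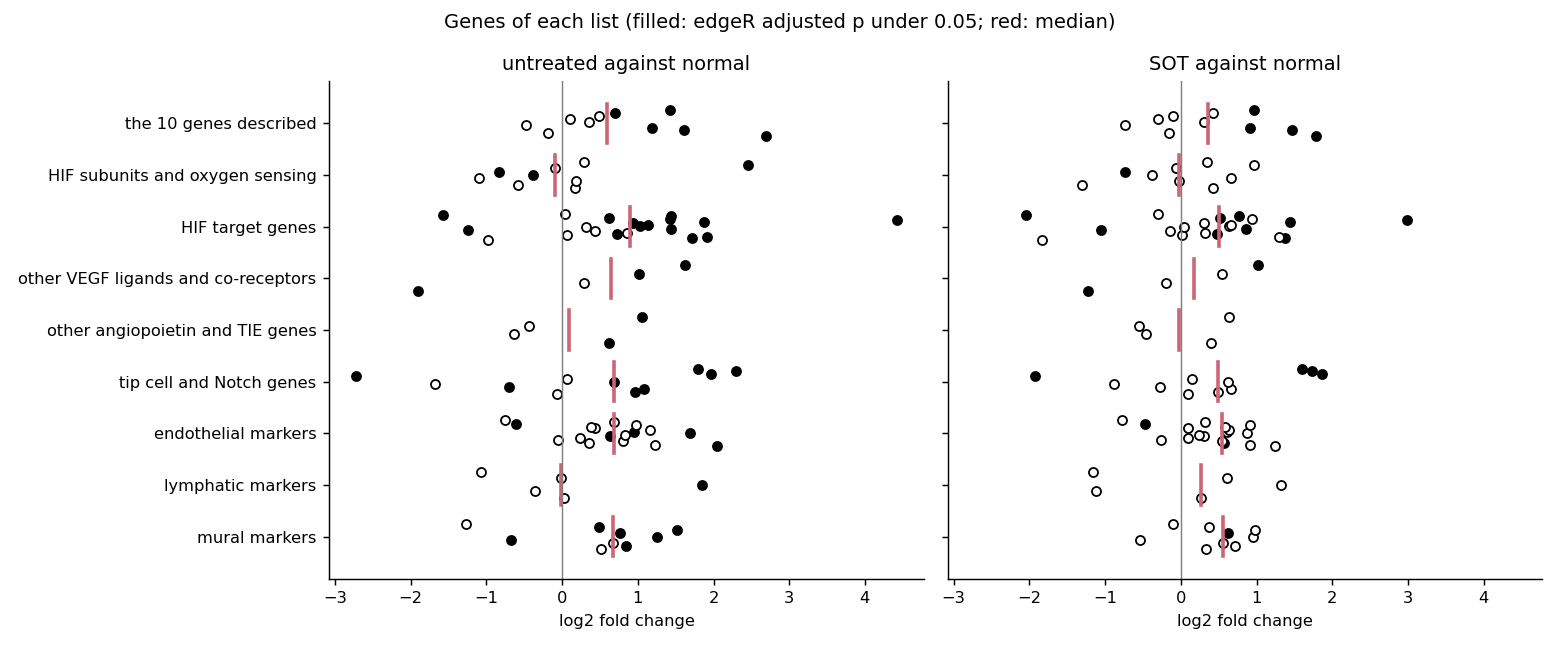
Log2 fold change (horizontal axes) of the genes of 9 lists, with 1 point per gene, filled where the edgeR adjusted p was under 0.05, and a red line at each list's median, for untreated against normal and SOT against normal folds. The 20 HIF target genes lie on both sides of 0 in untreated folds, with ALDOA lowest at -1.58 and a median of 0.90, and the 9 oxygen-sensing genes centre at -0.10.

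The genes whose pattern was most like that of HIF1A were found by Pearson's r of log2 CPM over the 9 libraries, among 10009 genes with a mean of at least 10 CPM. Among the nearest were PRR16 (r = 0.998), the integrin subunit ITGB1 (0.996), the interferon gamma receptor IFNGR1 (0.995) and the protease FURIN (0.994). ITGB1 had an FPKM of 106, 115 and 106 in normal, 202, 249 and 235 in untreated and 219, 219 and 141 in SOT folds, with SOT replicate 3 the lowest of the injured libraries, as for HIF1A. For VEGFA the nearest genes were CHRNE (0.925), TBCA (0.922), the matrix protease ADAMTS1 (0.919), MRPL35 (0.918) and the Wnt receptor FZD7 (0.907). For ANGPT1 they were the macrophage mannose receptor MRC1 (0.959), the semaphorin SEMA3E (0.958), KIAA0513 (0.941), HERC1 (0.939) and NINJ1 (0.936). MRC1 had an FPKM of 10.5, 11.8 and 10.3 in normal, 23.4, 20.9 and 21.7 in untreated and 19.2, 9 and 7.38 in SOT folds. The 9 libraries fall into 3 groups and share their depth, so these values describe likeness over groups and were not tested.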

How the data were processed

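Polyadenylated RNA from rabbit vocal folds was sequenced in 9 libraries, 3 per group. The submitters' processing notes name cutadapt 1.9, HISAT2 2.0.4, StringTie 1.3.4d, edgeR and build OryCun2.0, without stating which step each performed; strandedness was not stated. The authors deposited 1 table of 20525 genes with whole-number read counts and FPKM values per library, per the file headers. Its counts were used as deposited. The deposited FPKM values served for levels, ratios and proportions. A locus number stood in place of a symbol for 5734 genes, and 530 of these took their symbol by Entrez ID from RefSeq (assembly mOryCun1.1, for names alone).

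In R 4.3.3, edgeR 4.0.16 fitted all 9 libraries with 1 mean per group after filterByExpr and TMM scaling (factors 0.947 to 1.089). The quasi-likelihood test compared the 3 pairs of groups, with Benjamini-Hochberg adjustment over 17344 genes and a threshold of 0.05. Pairs of genes were compared as log2 FPKM ratios by two-sided exact permutation. Alternatives were DESeq2 1.42.0, its size factors in edgeR, no filter, limma 3.58.1 on log2(FPKM + 0.1) and log2(FPKM + 1), a replicate block, and leaving out each library. The edgeR script was tested on simulated data.

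The 10 genes and the 13 other lists were chosen with earlier results of these data known. Of each list other than the 10 genes, up to 3 called genes with the largest change in untreated against normal folds are named, or, where none passed, the gene with the smallest p, and the 5 genes most like HIF1A, VEGFA and ANGPT1. Further genes of the lists (EPAS1, LDHA, CA9, SLC2A1, ALDOA, PDK1, ENO1, PGK1, HK2, PGF, PTPRB, ANGPT4, DLL4, CLEC14A, CSPG4, PROX1 and LYVE1) were named after their values were seen. Symbols of the lists that were not matched in the table were not used here, and 2 genes that the rule names are not reported here. Total counts lay between 44755718 and 50338111 per library.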

Additional observations from a re-analysis of the deposited data

How the results depend on the processing

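The count of the 10 genes that rose in untreated against normal folds was 5 in all 15 alternatives. With a replicate block, the count stayed at 5 in untreated against normal folds (5526 over all genes), at 0 in SOT against untreated folds (0 over all genes) and at 4 between SOT and normal folds (2625 over all genes). Libraries of the same number correlated between -0.048 and 0.267 in their deviations from the group means, and those of different numbers between -0.276 and 0.174. With 3 libraries per group these values cannot decide whether same-numbered libraries share an animal or a batch, which the labels do not state. Leaving out 1 library gave 2 to 5 of the 10 genes in SOT against normal folds, and over all genes 3145 to 6026 calls in untreated against normal, 0 to 397 in SOT against untreated (397 without SOT replicate 1) and 1135 to 3222 in SOT against normal folds. DESeq2 called 682 genes and limma on log2(FPKM + 1) called 32 in SOT against untreated folds, and DESeq2 called 4819 in SOT against normal folds. On log2(FPKM + 0.1) the median of all genes was 0.13 in SOT against untreated folds, against 0.01 on counts.

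None of the changes of sign touched a called gene. In SOT against untreated folds VEGFA was at -0.03 with the replicate block, and FLT4 at 0.07 and 0.06 with limma on the pseudocounts of 0.1 and 1. With 1 library left out, the differences between SOT and untreated folds ran from -0.17 to 0.31 for VEGFA, -0.51 to 0.11 for VEGFC, -0.73 to 0.05 for FLT1 and -0.22 to 0.11 for FLT4, and from -0.37 to 0.06 for the log2 ratio of FLT1 to KDR. Those between SOT and normal folds ran from -0.37 to 0.12 for VEGFA and from -0.30 to 0.03 for ANGPT1. EGLN3 ran from -0.05 to 1.38 between SOT and normal folds. The 10 genes had 285 or more counts in every library.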
